A study of Mus musculus with 8 samples.

Results

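The 9 genes described here encode the membrane-proximal signalling machinery of the pre-B cell receptor (pre-BCR). They are Cd79a, Cd79b, Lyn, Blk, Fyn, Syk, Blnk, Btk and Plcg2, chosen by name, and they are 9 of the 21320 genes or features measured. On the arrays they are represented by 12 probes that are not control probes and whose deposited gene name is one of the 9. Syk, Btk and Cd79a have 2 probes each, and the other 6 genes have 1. All 12 probes were well above background, by the scanner's own flag, on all 8 arrays.

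RNA came from the mouse line wk3, pre-B cells of genotype SLP-65-/-, so every group, controls included, lacks the adaptor protein SLP-65, which the Blnk gene encodes. Cells were transduced with a retroviral vector carrying either a scrambled sponge, the control, or a miR-15 sponge, an RNA with binding sites meant to sequester the miR-15 family of microRNAs, and were selected with puromycin. Each population was grown in excess IL-7, a growth factor on which early B cell precursors depend in culture, or kept for 36 h without it, a step the study used to start differentiation. The 4 groups were the scrambled sponge with IL-7, the scrambled sponge without IL-7, the miR-15 sponge with IL-7 and the miR-15 sponge without IL-7, with 2 one-colour arrays per group, and the second replicate repeated the experiment with newly made clones.

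As background, a pre-B cell displays the immunoglobulin heavy chain with a surrogate light chain, and the pair signals through CD79A and CD79B, whose tails carry tyrosine activation motifs. Src-family kinases (LYN, BLK and FYN here) phosphorylate these motifs, SYK docks on them, and SYK then phosphorylates SLP-65, a scaffold that brings BTK together with its substrate, the phospholipase PLCG2. In mouse pre-B cells SLP-65 is known to restrain expansion and to favour light chain recombination, in opposition to IL-7 signalling. The comparisons below ask how the RNA of these components differs after IL-7 withdrawal and when the miR-15 family is sequestered.

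The sponge was designed against 6 microRNAs, and their mature sequences from RefSeq (GRCm38.p6) are given because they are the molecules the manipulation acts on. Capitals mark bases 2 to 8, the seed that pairs with targets; all 6 share 1 seed. They come from 7 loci, since miR-16-5p has 2.
miR-15a-5p: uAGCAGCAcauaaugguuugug
miR-15b-5p: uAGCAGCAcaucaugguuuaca
miR-16-5p: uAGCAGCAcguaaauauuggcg
miR-195a-5p: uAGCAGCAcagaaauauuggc
miR-322-5p: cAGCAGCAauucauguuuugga
miR-497a-5p: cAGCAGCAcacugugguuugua

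MicroRNA levels were not measured on these arrays. No transcript sequence of the 9 genes was at hand, so seed matches in them were not searched.

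The probes are 60 bases long, and their positions are those deposited, on mm9. Of these, 3 are printed here, that of Blk, whose replicates lay far apart in 1 group, and the second probes of Cd79a and Btk, which are compared with the first below. The Blk probe (chr14:63997333-63998470, minus strand) has a genomic span of 1138 bases, longer than the probe itself. The second Cd79a probe (chr7:25684357-25684614, plus strand) spans 258 bases, also longer than the probe. The second Btk probe (chrX:131083955-131084014, minus strand) lies within 1 uninterrupted stretch. No transcript annotation of this build was used, so exons and untranslated regions were not assigned.
Blk: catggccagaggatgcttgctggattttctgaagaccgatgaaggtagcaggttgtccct
Cd79a: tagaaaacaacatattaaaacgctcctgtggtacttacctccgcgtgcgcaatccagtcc
Btk: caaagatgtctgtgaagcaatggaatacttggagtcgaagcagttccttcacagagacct

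Each array had 59305 spots other than controls, of which 50.6% to 56.6% passed the background flag and 0 were saturated. The 8 B lineage precursor markers examined, among them Pax5, Ebf1 and Rag1, were well above background in all 4 groups. Of the 8 T cell markers, 5 were above background in each group, while Cd3g, Cd3d and Cd8a were not. The summed T cell signal was 16483 to 22278 per array, against 343929 to 434413 for the B lineage list. Zap70 alone made up 58.4% to 72.8% of the T cell sum, and Vpreb1 48.7% to 55.9% of the B lineage sum. Sums over different probes do not measure the numbers of cells. The summed signal of the 7 myeloid markers was 5860 to 6159 in scrambled cells with IL-7, 9410 to 9832 without, 4822 to 6436 in sponge cells with IL-7 and 6967 to 7392 without. Itgam alone made up 89.3% to 97.2% of that sum on each array. It was called higher after withdrawal in scrambled cells (0.61 ± 0.19, adjusted p = 0.0422) and not in sponge cells (0.27 ± 0.19, adjusted p = 0.369). Lyz2 was called lower in both constructs, but was not well above background on any scrambled array or on any sponge array without IL-7. Csf1r, Adgre1 and Mpo were not called in either, and Cd14 and Ly6g did not pass the background filter in any group. The part of myeloid cells in the changes below was not tested. The 2 replicates of scrambled cells with IL-7 were the least alike, with 1168 genes more than 1 log2 unit apart, against 193 to 519 in the other groups. Groups of arrays differ in slide position exactly as they differ in IL-7 and construct, so position and group cannot be told apart. These are bulk RNA samples, in which fewer cells of a kind and less RNA per cell cannot be told apart.

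Levels are given as log2 processed signal minus the log2 of the array's 75th percentile, so a value of 0 is the 75th percentile and each unit is a doubling. Levels of different probes are not comparable, and only differences between groups of 1 probe are. Blnk, the gene disrupted in this line, is reported first. Its probe (chr19:41003426-41003485, minus strand) read 7.56 and 7.42 in the 2 scrambled arrays with IL-7 and 8.19 and 8.24 in those without. In sponge cells it read 7.16 and 7.16 with IL-7 and 7.69 and 7.66 without. Blnk RNA was thus present at a high signal on every array, and the 4 groups did not overlap. Where this probe lies relative to the disrupted part of the gene is not given in the sources used here, so its signal is no check of the genotype and says nothing of functional protein.

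The signalling chains came next in the pathway. Cd79b (chr11:106172780-106172839, minus strand) read 8.58 and 8.54 in scrambled cells with IL-7, 8.92 and 9.0 without, 8.25 and 8.28 in sponge cells with IL-7 and 8.54 and 8.56 without. Scrambled cells without IL-7 stood highest and sponge cells with IL-7 lowest, while the 2 middle groups overlapped. Cd79a, by its brighter probe (chr7:25686823-25686882, plus strand), read 6.58 and 6.79, then 6.84 and 6.97, in scrambled cells with and without IL-7, and 6.43 and 6.56, then 6.60 and 6.69, in sponge cells. The outer groups were the same as for Cd79b, and the 2 groups between them overlapped.

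Of the Src-family kinases, Lyn (chr4:3718682-3718741, plus strand), which both starts and restrains receptor signalling, read 0.31 and 0.64 in scrambled cells with IL-7 and 1.43 and 1.47 without. In sponge cells Lyn read 0.61 and 0.59 with IL-7 and 1.09 and 0.93 without. The 2 groups with IL-7 overlapped and lay below the 2 groups without. Blk, a kinase largely restricted to B lineage cells, read -3.42 and -3.55 in scrambled cells with IL-7 and -2.48 and -2.26 without. In sponge cells Blk read -4.57 and -3.14 with IL-7 and -2.85 and -3.12 without. The first sponge array with IL-7 stood far below its replicate, and the processed signals of the Blk probe, from which the background is already subtracted, were 15.3 to 77.1 over the 8 arrays, all flagged well above background. Fyn (chr10:39284572-39284631, plus strand), a kinase expressed in many lineages, stayed between 0.98 and 1.29 on all 8 arrays, and its groups largely overlapped.

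Syk, the kinase that docks on the phosphorylated chains, read 6.52 and 6.32 in scrambled cells with IL-7 and 7.01 and 7.07 without, at its brighter probe (chr13:52744088-52744147, plus strand). In sponge cells it read 6.10 and 6.15 with IL-7 and 6.63 and 6.69 without. The 4 groups did not overlap and ran in the order found for Blnk. Btk (chrX:131076995-131077054, minus strand) stayed between 4.86 and 5.08, with the sponge arrays without IL-7 lowest. Plcg2 (chr8:120158980-120159037, plus strand) stayed between 6.80 and 6.96, with the scrambled arrays without IL-7 lowest.

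**Figure D1:**
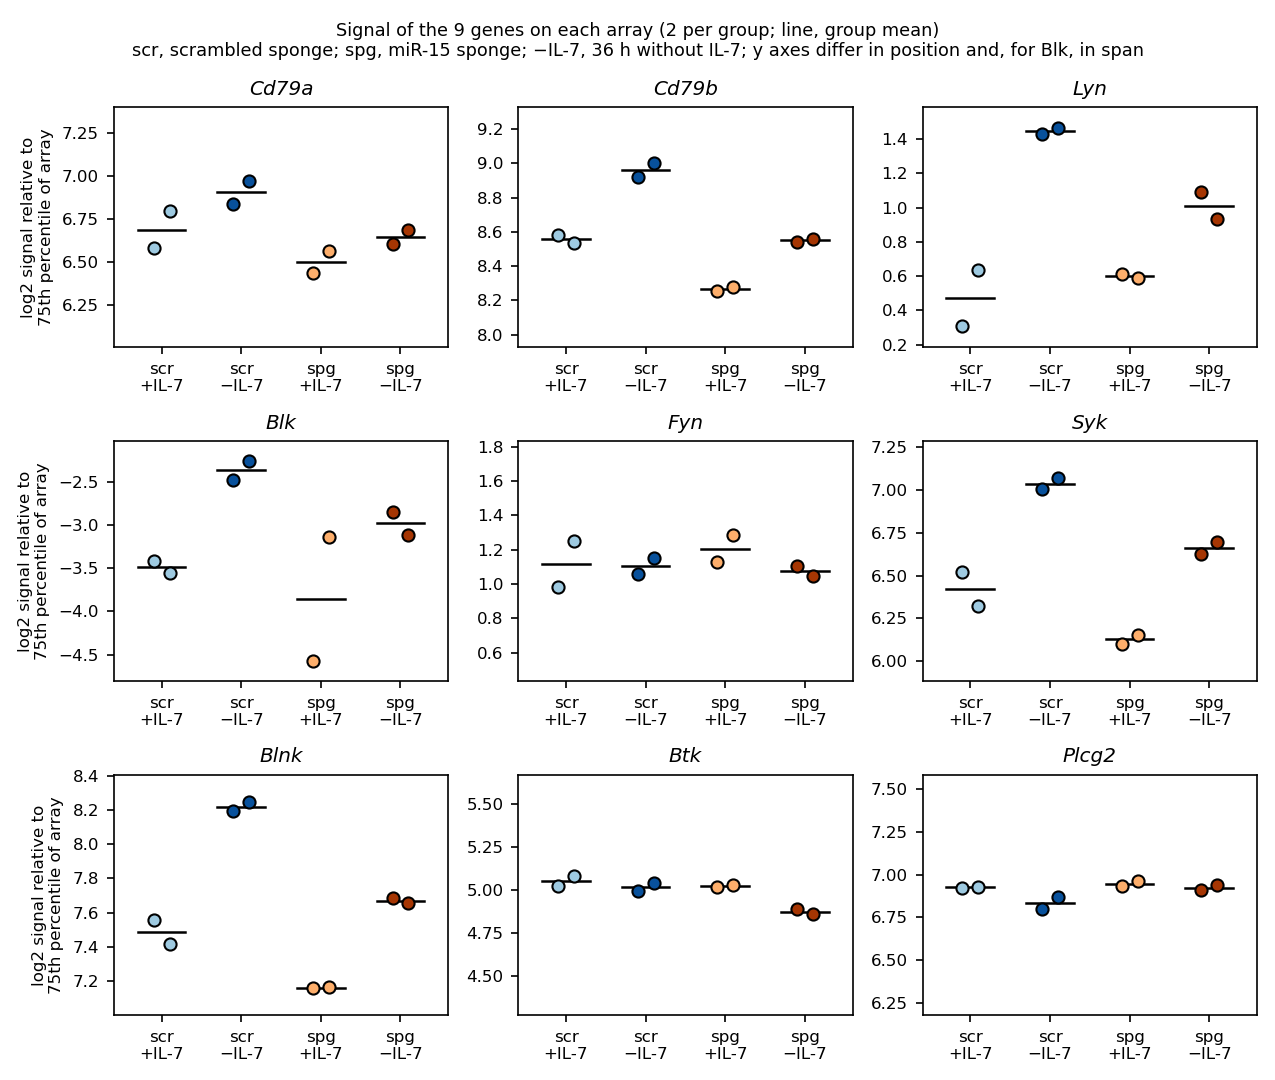
Log2 processed signal relative to the array's 75th percentile (y axis) for the representative probe of each of the 9 genes in the 4 groups (x axis), 1 point per array and a line at the group mean. Blnk and Syk run in the order sponge with IL-7, scrambled with IL-7, sponge without and scrambled without, Fyn stays between 0.98 and 1.29, and the first sponge array with IL-7 stands apart for Blk.

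The mean levels show the order of the groups. For Blnk they were 7.16 ± 0.002 (SD, n = 2) in sponge cells with IL-7, 7.49 ± 0.096 in scrambled cells with IL-7, 7.67 ± 0.020 in sponge cells without and 8.22 ± 0.036 in scrambled cells without. For Syk the same order gave 6.13 ± 0.037, 6.42 ± 0.141, 6.66 ± 0.049 and 7.04 ± 0.045. For Lyn the 2 groups with IL-7 changed places, at 0.47 ± 0.233 in scrambled and 0.60 ± 0.014 in sponge cells, a difference within the replicate spread.

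IL-7 withdrawal in scrambled cells answers how the pathway's RNA differed after 36 h without the cytokine when the miR-15 family was not sequestered. Blnk, Syk, Lyn and Cd79b rose, none of the 9 fell, and Cd79a, Blk, Fyn, Btk and Plcg2 were not called. A gene was called at a Benjamini-Hochberg adjusted p under 0.05 from limma's moderated test, adjusted over all 21320 genes. The 4 genes called higher are 4 of 9, where 20.7% of all genes were called higher, 27.4% lower and 48.1% in either direction. Lyn rose by 0.98 ± 0.12 (log2 change ± SE, 2 arrays against 2, adjusted p = 0.00167), a 1.97-fold rise. Blnk rose by 0.73 ± 0.08 (adjusted p = 0.000824), Syk by 0.61 ± 0.09 (adjusted p = 0.0029) and Cd79b by 0.40 ± 0.07 (adjusted p = 0.00466). These 4 were also called under all 15 alternative settings tried. Counted by arrays alone, 6 of the 9 (these 4, Cd79a and Blk) had both arrays without IL-7 above both with it, as did 35.2% of all genes. Blk had the largest fitted difference, 1.12, but with an SE of 0.44 it was not called (adjusted p = 0.0837). It was called when either sponge array with IL-7 was left out (adjusted p = 0.00364 in each case), and after normexp background correction (0.39, adjusted p = 0.0462). Cd79a differed by 0.22 (95% interval -0.05 to 0.48), Fyn by -0.01 (-0.29 to 0.27), Btk by -0.03 (-0.20 to 0.13) and Plcg2 by -0.09 (-0.25 to 0.07). The median difference of the 9 genes was 0.40, against -0.02 over all genes.

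In sponge cells, Blnk, Syk and Cd79b rose after IL-7 withdrawal, and none of the 9 fell. These are 3 of 9, where 7.92% of all genes were called higher, 15.2% lower and 23.2% in either direction. Syk rose by 0.53 ± 0.09 (adjusted p = 0.0124), Blnk by 0.51 ± 0.08 (adjusted p = 0.00824) and Cd79b by 0.29 ± 0.07 (adjusted p = 0.0325). The 3 calls rested on few arrays: leaving out any 1 of the 4 sponge arrays left 1 gene called. That gene was Blnk, except without the second sponge array with IL-7, where Blnk was lost (adjusted p = 0.0508) and Blk was called (1.59, adjusted p = 0.0236). The Cd79b call was also lost without either scrambled array kept without IL-7 (adjusted p = 0.059) and without a filter on dim probes (0.101). The same 6 genes as in scrambled cells had both arrays without IL-7 above both with it, as did 25.7% of all genes. Lyn differed by 0.41 ± 0.12 and was not called (adjusted p = 0.0658); it was called when either scrambled array with IL-7 was left out (adjusted p = 0.0261), and among probes well above background on all arrays (0.0445). Blk differed by 0.87 ± 0.44 with all arrays. Cd79a, Fyn, Btk and Plcg2 differed by 0.15, -0.13, -0.15 and -0.02, and none was called. The median of the 9 was 0.29, against -0.06 over all genes.

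**Figure D2:**
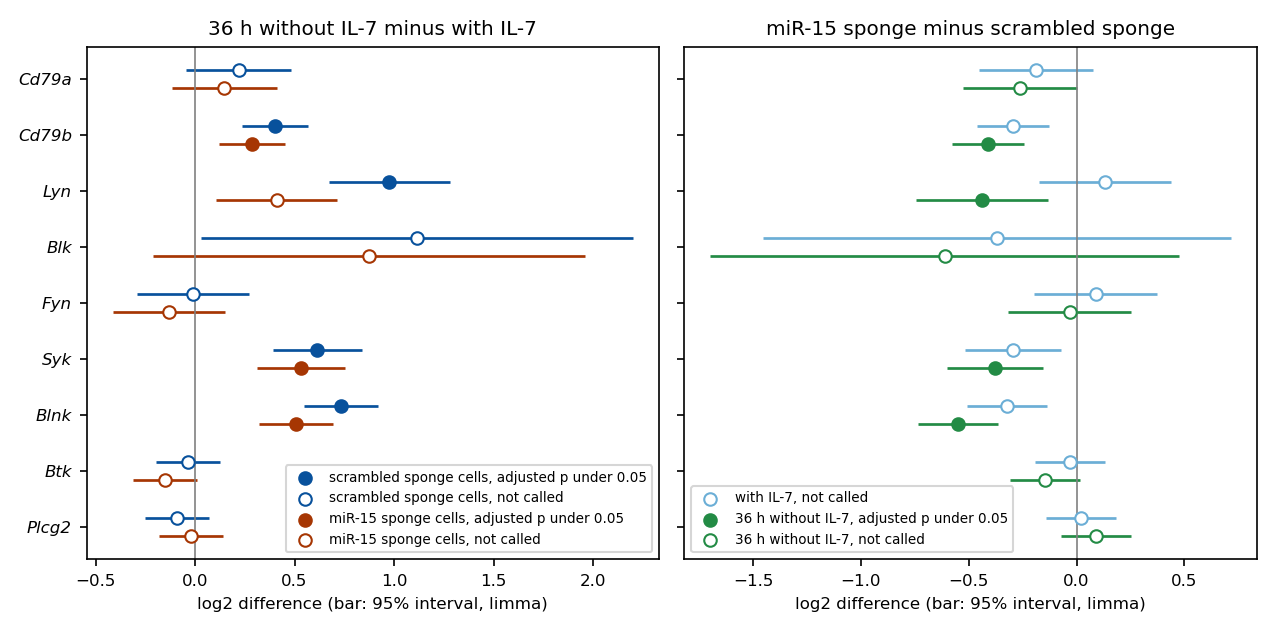
Log2 differences (x axis) of the 9 genes after IL-7 withdrawal in scrambled and sponge cells (left) and between sponge and scrambled cells with and without IL-7 (right), with 95% intervals from limma; filled points passed an adjusted p under 0.05. Blnk, Syk and Cd79b are filled in both withdrawal comparisons, and no gene is filled for the sponge with IL-7.

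The sponge comparison in IL-7 asks how the pathway differed while the cells were still maintained in the cytokine. None of the 9 genes was called by limma, where 1.13% of all genes were called in either direction. At an unadjusted p under 0.05, 3 of the 9 were lower in sponge cells, namely Blnk, Syk and Cd79b, as were 9.54% of all genes. Blnk differed by -0.32 ± 0.08 (adjusted p = 0.114), Syk by -0.29 ± 0.09 (adjusted p = 0.177) and Cd79b by -0.29 ± 0.07 (adjusted p = 0.113). Both sponge arrays lay below both scrambled arrays for these 3 genes and for Cd79a, 4 of the 9, as they did for 23.3% of all genes. Lyn differed by 0.13 (95% interval -0.18 to 0.44), and Btk, Fyn and Plcg2 by -0.03, 0.09 and 0.02.

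After 36 h without IL-7, the sponge cells held less Blnk, Cd79b, Lyn and Syk RNA than scrambled cells. The 4 genes called lower are 4 of 9, where 15.3% of all genes were called lower, 16.8% higher and 32.1% in either direction, and none of the 9 was called higher. Blnk was lower by 0.55, a difference of -0.55 ± 0.08 (adjusted p = 0.00389), or 0.684-fold, and this call held under all 15 alternatives. Cd79b differed by -0.41 ± 0.07 (adjusted p = 0.00715), a call lost only without the second scrambled array kept without IL-7 (adjusted p = 0.0552). Syk differed by -0.38 ± 0.09 (adjusted p = 0.0254), and the call was lost when any 1 of the 4 arrays without IL-7 was left out (adjusted p from 0.0763 to 0.131) or the filter on dim probes was dropped (0.0699). Lyn differed by -0.44 ± 0.12 (adjusted p = 0.0431). The Lyn call was lost with the replicate number as a block (adjusted p = 0.0631), after normexp correction (0.117), without a filter on dim probes (0.0998), and without any 1 of the sponge arrays or of the scrambled arrays kept without IL-7. As a result of these losses, the count fell to 2 without the first scrambled array, 1 without the second, and 2 without either sponge array, all kept without IL-7. Cd79a differed by -0.26 ± 0.11 (adjusted p = 0.12) and was called with the replicate block (adjusted p = 0.0477). Btk differed by -0.15 (95% interval -0.31 to 0.02), Fyn by -0.03, Plcg2 by 0.09 and Blk by -0.61 with an SE of 0.44. Blk was called lower when either sponge array with IL-7 was left out (adjusted p = 0.0309). Both sponge arrays lay below both scrambled arrays for 7 of the 9, the exceptions being Fyn and Plcg2, as they did for 40.3% of all genes. The median of the 9 was -0.38, against -0.05 over all genes.

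Whether withdrawal acted differently in sponge and scrambled cells was tested as the difference between the 2 withdrawal effects. None of the 9 was called by limma, where 5.27% of all genes were, and 1, Lyn, had an unadjusted p under 0.05, as did 23.2% of all genes. The Lyn difference was -0.57 ± 0.18 (adjusted p = 0.13), and it was called without the second scrambled array with IL-7 (-0.73, adjusted p = 0.0441). For Blnk the difference was -0.22 (95% interval -0.49 to 0.04), for Syk -0.08 (-0.40 to 0.23) and for Cd79b -0.12 (-0.35 to 0.12). The intervals are wide beside the withdrawal effects themselves, so a smaller rise of these 3 genes in sponge cells was neither detected nor shown to be absent. The withdrawal and sponge comparisons share arrays, so their values stand side by side here and are not independent of each other.

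The 3 genes with 2 probes allow each reading to be set beside the other in the 30963 probes tested. The second Syk probe (chr13:52738924-52738983, plus strand, deposited under the accession of a cloned cDNA and of low signal) read -1.92 and -1.88 in scrambled cells with IL-7 and -0.56 and -0.45 without. In sponge cells it read -2.06 and -2.06 with IL-7 and -1.45 and -1.46 without. Groups with and without IL-7 stood well apart, and among arrays without IL-7 the scrambled ones were the higher. Signal at this probe rose by 1.39 ± 0.08 in scrambled cells (adjusted p = 0.00033) and by 0.60 ± 0.08 in sponge cells (adjusted p = 0.00657), where the brighter Syk probe gave 0.61 and 0.53. Without IL-7 it was lower in sponge cells, at -0.95 ± 0.08 (adjusted p = 0.00155). The withdrawal effect was smaller in sponge cells by 0.79, a difference of -0.79 ± 0.11 (adjusted p = 0.0359). That call held under only 5 of 14 alternatives. It was lost with the replicate block (adjusted p = 0.0595), after normexp correction (0.0598) and without a filter on dim probes (0.12), among others. The 2 Syk probes had the same sign in all 4 comparisons between groups; which transcripts each probe reads was not determined.

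The second Cd79a probe differed by 0.00 ± 0.13 in scrambled cells and by 0.08 ± 0.13 in sponge cells after withdrawal, and neither was called. The second Btk probe gave -0.19 ± 0.07 (adjusted p = 0.073) and -0.21 ± 0.07 (adjusted p = 0.104). Its arrays without IL-7 lay below those with IL-7 in both constructs, which the first Btk probe showed in sponge cells alone. In the fit of all tested probes, neither gene was called by either of its probes in any of the 4 comparisons between groups.

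**Figure D3:**
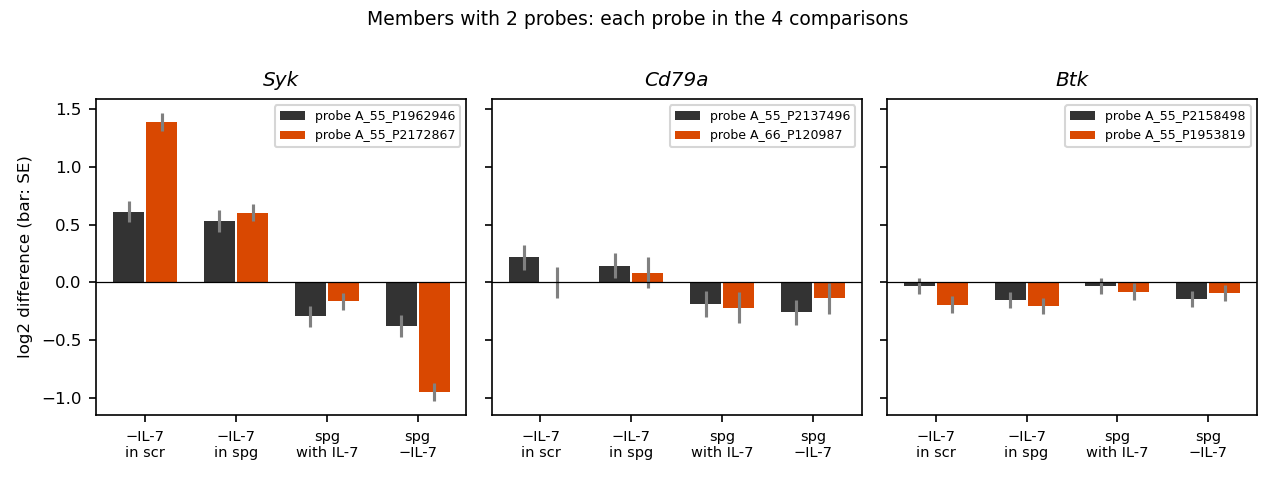
Log2 differences (y axis, bars with SE) at both probes of Syk, Cd79a and Btk for IL-7 withdrawal in scrambled (scr) and sponge (spg) cells and for sponge minus scrambled with and without IL-7. The second Syk probe gave 1.39 in scrambled cells, where the first gave 0.61, and no bar of Cd79a or Btk was called.

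The scaling between arrays decided how many of the 9 were called after withdrawal. With quantile normalization, which gives every array the same distribution, 7 of the 9 were called higher in scrambled cells and 5 in sponge cells. The authors' deposited value table gave the same counts. It also has 1 distribution on all arrays, so it is not a separate check. Of all genes, 24.7% were then called higher in scrambled and 9.79% in sponge cells, and 24.6% and 9.75% with the deposited table. In scrambled cells Cd79a then rose by 0.66 (adjusted p = 0.005), Plcg2 by 0.36 (adjusted p = 0.00636) and Btk by 0.29 (adjusted p = 0.0119), beside the 4 genes named above. In sponge cells the further 2 were Cd79a, at 0.60 (adjusted p = 0.0194), and Plcg2, at 0.45 (adjusted p = 0.0109). Plcg2 and Btk thus change sign between the scalings, as does Fyn (0.05, not called), and no direction is given for these 3. The values for Cd79a and Btk are those of their brighter probes. Over all alternatives, the second Cd79a probe ranged from -0.10 to 0.16 in scrambled and from -0.07 to 0.23 in sponge cells. The second Btk probe ranged from -0.21 to -0.03 in scrambled cells, and neither second probe was called after withdrawal with either scaling. Among all genes, the share of calls that were higher moved from 34.2% to 51.6% in sponge cells and from 43.1% to 51.5% in scrambled cells.

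The 2 scalings differ most at high signal. Blnk, Syk, Cd79a, Cd79b and Plcg2 have a mean level of 6 or more, and Btk one between 4 and 6. Among the 1117 genes with a mean level of 6 or more, the median withdrawal difference in scrambled cells was -0.48 after scaling to the 75th percentile and -0.06 after quantile normalization. Measured from the median of genes at the same level, a description added after these values were seen, Blnk stood 1.21 higher under the first scaling and 1.13 under the second. Syk stood 1.09 and 1.11 higher, Cd79b 0.88 and 0.71, Cd79a 0.70 and 0.72, and Plcg2 0.39 and 0.42. Lyn, in the level class from 0 to 2, stood 0.99 and 1.00 higher, and Fyn, in the same class, 0.01 and 0.03. Set against genes of like signal, the gap between the scalings was largest for Cd79b. In sponge cells these distances were 0.96 and 1.01 for Blnk, 0.99 and 1.02 for Syk, 0.45 and 0.42 for Lyn and 0.06 and 0.07 for Btk. The sponge comparison without IL-7 was less dependent on scaling: quantile normalization called the same 4 genes lower, with Blnk at -0.46, Syk at -0.41, Lyn at -0.49 and Cd79b at -0.27, and added Btk at -0.32 (adjusted p = 0.0122).

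**Figure D4:**
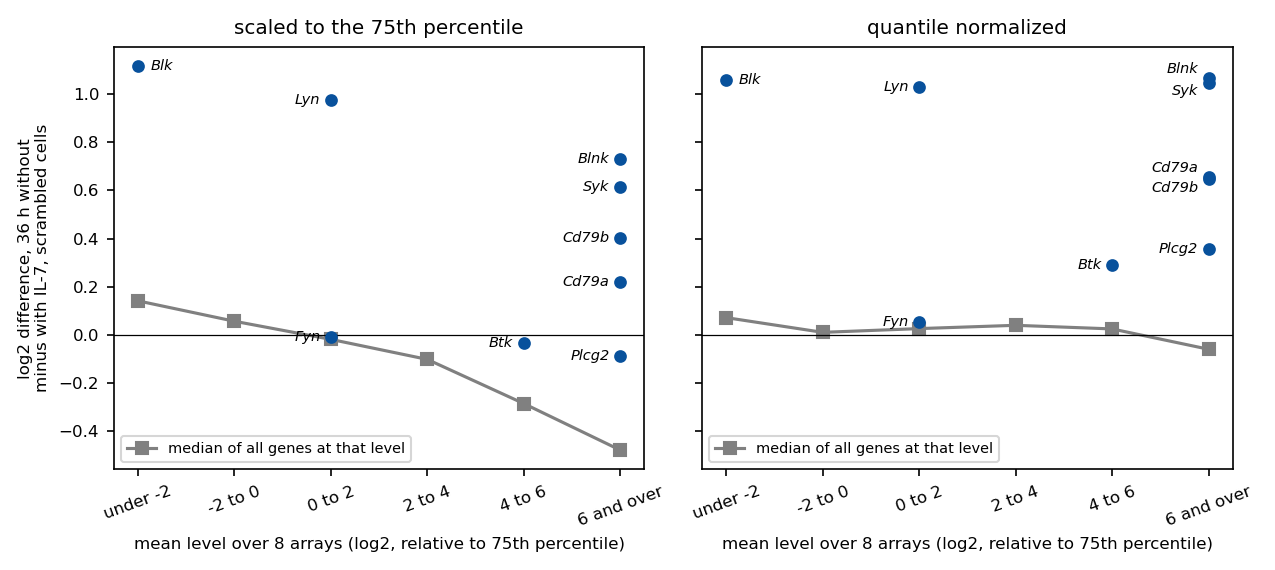
Log2 withdrawal difference in scrambled cells (y axis) of each of the 9 genes, placed by its class of mean level over the 8 arrays (x axis), with the median of all genes in that class as squares, after scaling to the 75th percentile (left) and after quantile normalization (right). The median of the highest class is -0.48 on the left and -0.06 on the right, and Plcg2 lies below 0 on the left and above 0 on the right.

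Stretches upstream of the transcription start were available from RefSeq (GRCm38.p6) for 6 of the 9 genes, in 7 windows of 250 bases, since Syk has 2; none was at hand for Lyn, Blk and Cd79b. Those of Blnk and Syk are shown because both genes rose in both constructs, and that of Cd79a because it holds a motif also found at Blnk. Both strands were searched for FoxO (GTAAACA) and STAT (TTCNNNGAA) motifs, the recognition letters of factors known in B cell precursors, and, chosen after the windows were read, for the octamer (ATTTGCAT) and an Ets motif (AGGAAGT). The motifs are in capitals; none overlaps another. The windows lie at chr19:40994222-40994471 (minus strand) for Blnk, chr7:24897247-24897496 (plus strand) for Cd79a, and chr13:52583187-52583436 and chr13:52596632-52596881 (plus strand) for Syk.
Blnk: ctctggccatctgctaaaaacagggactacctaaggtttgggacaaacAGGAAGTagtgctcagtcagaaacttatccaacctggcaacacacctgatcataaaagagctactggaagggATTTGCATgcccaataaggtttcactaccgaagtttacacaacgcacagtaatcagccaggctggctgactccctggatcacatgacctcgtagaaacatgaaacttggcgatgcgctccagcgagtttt
Cd79a: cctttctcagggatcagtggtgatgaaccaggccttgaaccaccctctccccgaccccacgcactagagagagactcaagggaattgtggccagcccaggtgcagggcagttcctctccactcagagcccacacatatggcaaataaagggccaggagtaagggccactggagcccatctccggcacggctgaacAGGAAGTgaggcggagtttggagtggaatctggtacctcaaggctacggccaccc
Syk, first start: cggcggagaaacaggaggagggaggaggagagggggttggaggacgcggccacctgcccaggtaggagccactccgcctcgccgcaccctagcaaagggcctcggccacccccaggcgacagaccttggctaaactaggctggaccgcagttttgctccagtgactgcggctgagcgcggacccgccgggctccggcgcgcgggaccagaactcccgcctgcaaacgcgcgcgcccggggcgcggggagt
Syk, second start: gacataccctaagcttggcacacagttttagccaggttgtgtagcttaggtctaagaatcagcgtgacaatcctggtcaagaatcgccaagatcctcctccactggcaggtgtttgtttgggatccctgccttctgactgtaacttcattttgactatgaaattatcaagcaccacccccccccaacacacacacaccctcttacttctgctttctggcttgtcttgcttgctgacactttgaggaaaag

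The octamer was found in 1 of the 7 windows, at Blnk 130 bases before the start, and in 1.60% of all 32851 windows of that length. The Ets motif was found in 2, at Blnk 202 and at Cd79a 55 bases before the start, and in 7.69% of all windows. Because these 2 motifs were chosen after the windows were read, their counts cannot show enrichment. FoxO and STAT motifs were found in 0 of the 7, and in 3.17% and 7.02% of all windows. The Syk windows hold none of the 4 motifs, and their GC content is 71.6% at the first start and 47.6% at the second.

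Other genes of the pathway were taken from 5 lists of general knowledge. Their counts are to be read beside the shares of all genes. After withdrawal, 20.7% of all genes were called higher and 27.4% lower in scrambled cells, and 7.92% and 15.2% in sponge cells. For the sponge without IL-7 these shares were 16.8% and 15.3%, and with IL-7 1.13% were called in either direction. No list count was tested against these shares. The first list holds the chains and the coreceptor, with 6 of 7 measured (Ighm has no named probe among those tested). After withdrawal in scrambled cells 2 were called lower and none higher. Cd81, the tetraspanin of the coreceptor, fell by 0.62 ± 0.09 (adjusted p = 0.00257). Igll1, a surrogate light chain gene, was called at -0.39 ± 0.09, but its sign turned with quantile normalization (0.06), so no direction is given. In sponge cells 2 were called lower and none higher (Cd81, -0.34, and the surrogate light chain gene Vpreb2, -0.31, which turned to 0.13 with quantile normalization). The Cd81 call in sponge cells was lost with quantile normalization (-0.05, adjusted p = 0.718). Without IL-7, sponge cells held less Cr2, the complement receptor of the coreceptor (-0.40 ± 0.11, adjusted p = 0.0353, lost with the replicate block at 0.0523), and more Cd81 (0.54 ± 0.09).

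Relatives of the 9 genes' products, mostly kinases better known from other lineages, were measured for 7 of 12, and 4 were called higher and 2 lower after withdrawal in scrambled cells. Tec, the kinase that names the family of Btk, rose by 0.95 ± 0.11, and Plcg1, the sister of Plcg2, by 0.52 ± 0.09. Lcp2, the relative of Blnk known from T cells, was called higher by 1.64 ± 0.36 (adjusted p = 0.0124), and by 0.28 with normexp correction. Its probe was well above background on 1 of the 2 arrays of each group with IL-7 and on both arrays of each group without. It thus passed the background filter only through the groups without IL-7, where it read higher. The size of that difference is uncertain, and the call and its place among the 4 are no support for a rise. Zap70, the relative of Syk used in T cells, differed by -0.50 ± 0.10, a call lost with quantile normalization (-0.16, adjusted p = 0.229). In sponge cells 0 of the 7 were called by limma, and 0 had an unadjusted p under 0.05. Without IL-7, 3 of the 7 were lower in sponge cells and none was higher: Tec by -0.76 ± 0.11, Lck, a Src-family kinase of T cells, by -0.69 ± 0.07 and Plcg1 by -0.62 ± 0.09. Lck and Zap70 are also among the T cell markers, whose summed signal is given above. Of the other T cell markers tested, Cd5 was called lower after withdrawal in scrambled (-0.93 ± 0.15) and sponge cells (-0.83 ± 0.15). Without IL-7, Cd5 was called higher in sponge cells (0.52 ± 0.15, adjusted p = 0.043). Cd3e was called lower after withdrawal in scrambled cells (-0.33 ± 0.09) and was not called for the sponge without IL-7 (0.08 ± 0.09). Cd4 was not called in any comparison. The part of T cells in these values was not tested.

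The list of other adaptors and exchange factors was measured whole, with 7 of 20 called higher and 3 lower in scrambled cells, and 6 higher and 3 lower in sponge cells. Bank1, a B cell scaffold that binds LYN, rose by 2.76 ± 0.21 in scrambled and 1.91 ± 0.21 in sponge cells. Rasgrp1, which loads Ras with GTP, rose by 0.93 ± 0.07 and 0.65 ± 0.07, the inhibitory adaptor Dok3 by 0.75 ± 0.09 and 0.54 ± 0.09, and the ubiquitin ligase Cblb by 0.72 ± 0.09 and 0.55 ± 0.09. With IL-7, Rasgrp1 alone of the 20 was called, at -0.79 ± 0.07 in sponge cells (adjusted p = 0.0152), a call lost without a filter on dim probes (0.0593). Without IL-7, 9 of the 20 were lower in sponge cells and none was higher, with Bank1 at -1.43 ± 0.21, Rasgrp1 at -1.06 ± 0.07, the docking protein gene Gab1 at -0.70 ± 0.09 and Dok3 at -0.51 ± 0.09.

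Among downstream components, 5 of 16 measured (of 17 listed) were called higher and 3 lower after withdrawal in scrambled cells, and 1 higher and 0 lower in sponge cells. Itpr2, a calcium release channel, rose by 0.83 ± 0.09 and 0.41 ± 0.09, and Pik3r1, the regulatory subunit of PI3 kinase, rose by 0.57 ± 0.10 in scrambled cells. The kinase gene Mapk3 fell by 1.04 ± 0.10, and the calcium sensor gene Stim1 fell by 0.66 ± 0.11. Without IL-7, 3 were higher in sponge cells and 4 lower, with Mapk3 at 1.19 ± 0.10, the protein kinase C gene Prkcd at -0.66 ± 0.09, Itpr2 at -0.54 ± 0.09 and the transcription factor gene Nfatc1 at -0.53 ± 0.08. In the list named brakes on these kinases, 4 of 10 genes were called higher and 1 lower in scrambled cells, and 2 higher and 1 lower in sponge cells. That list includes Ptprc, whose product is not solely a brake, so these are counts of listed genes. Sla, an adaptor that lowers receptor signalling, rose by 0.79 ± 0.07 and 0.48 ± 0.07, and the inhibitory coreceptor gene Cd72 by 0.77 ± 0.07 and 0.45 ± 0.07. The phosphatase gene Ptpn6 fell by 0.72 ± 0.08 in scrambled cells; in sponge cells it was called at -0.37 ± 0.08, which was lost with quantile normalization (-0.11, adjusted p = 0.408). Without IL-7, 4 genes of this list were lower in sponge cells and none was higher. These were Ptpn22, another phosphatase gene, at -0.87 ± 0.15, Cd22, an inhibitory lectin gene, at -0.58 ± 0.13, Sla at -0.54 ± 0.07 and Cd72 at -0.26 ± 0.07.

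The replicate block ended the sponge-cell withdrawal calls of Cd81 (adjusted p = 0.0644) and Vpreb2 (0.0595). Dropping the filter on dim probes ended those of Cd81, Vpreb2, Itpr2 and Ptpn6 and the calls of Cd72 (0.0992) and Cr2 (0.0875) for the sponge without IL-7. It also ended the scrambled withdrawal call of Cd22, 1 of the 4 genes of the brake list counted as higher (0.0763). Normexp correction ended the calls of Cd72 for the sponge without IL-7 (0.0922), of Vpreb2 (0.0545) and Cd81 (0.0518) in sponge withdrawal and of Cd22 in scrambled withdrawal (0.159). Some calls of these other genes ended when 1 array was left out, counted here over 8 such fits per call. In scrambled withdrawal they were those of Cd22 (5 fits), Igll1 (3), Lcp2 and Zap70 (1 each). In sponge withdrawal they were those of Vpreb2 (8), Cd81, Itpr2 and Ptpn6 (6 each), Cblb (3), and Cd72 and Dok3 (2 each). The Rasgrp1 call with IL-7 ended in 6. For the sponge without IL-7 they were those of Cd72 (6), Cd22 and Cr2 (4 each), and Dok3, Itpr2 and Ptpn22 (1 each). These losses are given for the named genes only. The counts of calls over whole lists also fell in such fits, those of the adaptor and brake lists among them. List counts changed with the scaling between arrays too, and are given here for scaling to the 75th percentile only. With quantile normalization the calls of Igll1 and Zap70 in scrambled withdrawal were lost. So were those of Cd81, Vpreb2 and Ptpn6 in sponge withdrawal. The list counts are therefore less firm than they look.

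**Figure D5:**
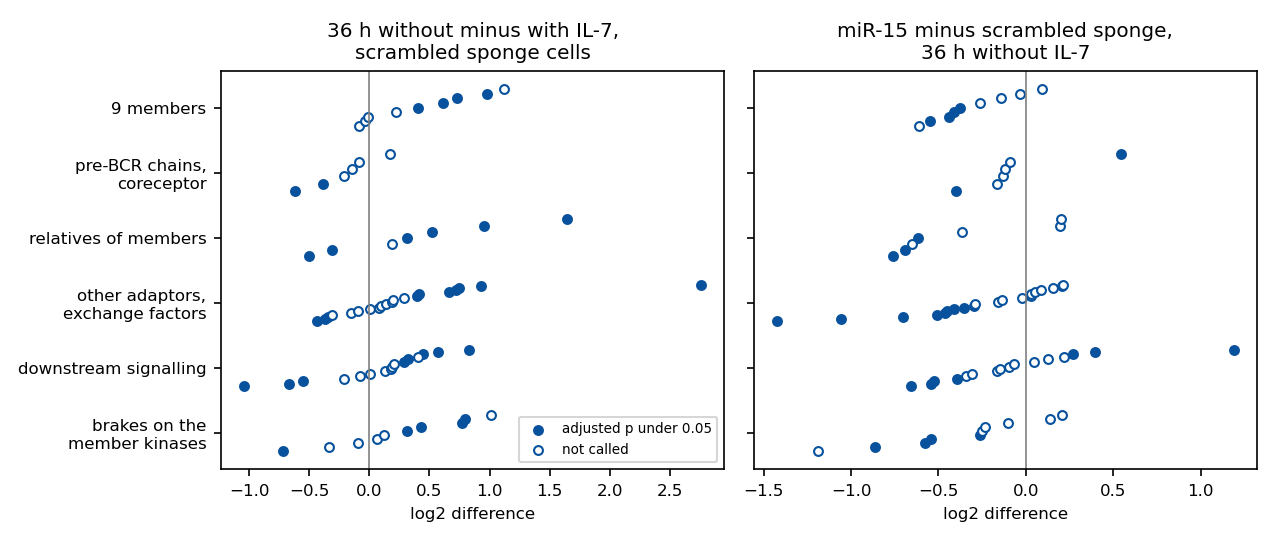
Log2 differences (x axis) of the 9 genes and of the measured genes of the 5 pathway lists (rows), for IL-7 withdrawal in scrambled cells (left) and for sponge minus scrambled cells without IL-7 (right), 1 point per gene, filled where the adjusted p was under 0.05. Bank1 lies farthest to the right on the left side, and in the adaptor, relative and brake lists no gene is filled above 0 on the right side.

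The genes whose pattern over the 8 arrays was most like each of the 9 were found by the root mean square difference in log2 level, after each gene's own mean was subtracted, over 12530 named genes measured above background on all arrays. The arrays share their groups and scaling, so likeness is a description. Nearest to Blnk was Asb13, at 0.029 log2 units (r = 0.998 over 8 arrays), and nearest to Cd79b was B3galt4, at 0.025. Syk was followed most closely by Arid1b (0.053) and Lyn by Mtm1 (0.072). None of the 9 was the nearest gene of another of the 9. Blk, with its wide spread, had no gene nearer than Gpm6a, at 0.227.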

How the data were processed

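Total RNA of 8 cultures was hybridised to one-colour Cy3 Agilent arrays. The deposited scanner files give a processed signal, an intensity on a linear scale that is background subtracted and detrended within the array, per the file headers. Extraction used Agilent Feature Extraction, version 10.7.3.1 per the file headers and 10.7.1.1 per the submitters' processing notes. The deposited value table, also a linear intensity, has 1 distribution on all arrays; the software behind it is not stated.

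Control spots and outlier spots were left out (128 to 277 outliers per array), the log2 of the deposited intensity minus the array's 75th percentile (signals of 297 to 410) was averaged per probe, and probes well above background on both arrays of a group were kept, 30963 of 55681. The probe of highest mean level stood for a gene. Probes were named through their accession (27235), symbol (3581) or synonym (565). The remaining 24300 kept their deposited label and were not excluded, so the shares of all genes are over genes or features. Groups were compared with limma 3.58.1 in R 4.3.3 over all 8 arrays, two-sided, with Benjamini-Hochberg adjustment; the number of arrays limits the precision. The study describes independent repetitions, so replicate numbers pair the groups. The main tests did not use this pairing, which entered the replicate block alone. Calls that changed with that block are given with the results. Correlations of same-numbered deviations were 0.018 to 0.131. Alternatives were quantile normalization, normexp correction (offset 50), the deposited table, other probe filters, all probes, a replicate block and leaving out each array. Genes named beyond the 9 are at most 4 called genes of a list in a comparison, by smallest p. The procedure was tested on simulated data. The 9 genes, lists and tests were chosen with earlier results of these data known. A few genes were left out of the lists and are not reported here.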

Additional observations from a re-analysis of the deposited data

Results flagged for a closer look

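The difference between the withdrawal effects in sponge and scrambled cells passed the test at 1 probe of the 9 genes and at 1 gene of the pathway lists. At the low-signal Syk probe it was -0.79 ± 0.11 (limma interaction contrast, adjusted p = 0.0359 over 30963 probes), from a rise of 1.39 in scrambled and 0.60 in sponge cells. The call held under 5 of 14 alternatives (adjusted p from 0.0158 to 0.142); it was lost without the first scrambled array with IL-7 (0.0732), the second scrambled array without IL-7 (0.102) or any 1 of the 4 sponge arrays (0.0843 to 0.142), and the value ranged from -0.85 to -0.50. For Mapk3, which encodes the kinase ERK1, it was 0.74 ± 0.14 (adjusted p = 0.0444 over 21320 genes), from -1.04 in scrambled and -0.31 in sponge cells. That call held under 4 of 14 alternatives (adjusted p from 0.0251 to 0.296, values 0.49 to 0.86), was lost with the replicate block (0.0556), and was kept in 1 of the 8 fits that left out an array, the one without the second scrambled array with IL-7. Groups of 2 arrays are too small for a search for outlying samples.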

How the results depend on the processing

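With quantile normalization and with the authors' deposited table, the number of the 9 genes called after withdrawal was 7 in scrambled and 5 in sponge cells, against 4 and 3. These 2 alternatives are alike in scaling and are not separate checks. Without a filter on dim probes, 2 were called lower for the sponge without IL-7, against 4. Leaving out each array gave 4 to 5 in scrambled withdrawal, 1 to 4 in sponge withdrawal, 0 to 0 for the sponge with IL-7, 1 to 4 without IL-7 and 0 to 1 for the difference. With the replicate block, which takes the repetitions as pairs, the Lyn call without IL-7 was lost (adjusted p = 0.0631), Cd79a was gained there (0.0477), and the Mapk3 (0.0556) and second Syk probe (0.0595) differences were lost; no other call of the 9 genes changed.

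Signs turned at these values. Quantile normalization gave Btk 0.29, Fyn 0.054, Plcg2 0.36 and Igll1 0.061 for scrambled withdrawal, Btk 0.096, Plcg2 0.45 and Vpreb2 0.13 for sponge withdrawal, Plcg2 -0.011 for the sponge with IL-7 and Cd79b 0.051 for the difference; the deposited table gave 0.29, 0.054, 0.36, 0.059, 0.096, 0.44, 0.13, -0.010 and 0.049 in the same order. Normexp correction gave Plcg2 0.077 and the second Cd79a probe -0.045 for scrambled withdrawal, and Btk 0.0030, Cd79a 0.046 and Plcg2 -0.14 for the difference; the median over probes gave Cd79a 0.0056 there. Over fits leaving out 1 array, scrambled withdrawal ranged from -0.15 to 0.12 for Fyn and from -0.10 to 0.10 for the second Cd79a probe, which ranged from -0.065 to 0.23 in sponge cells. The sponge with IL-7 ranged from -0.035 to 0.29 for Lyn, from -0.047 to 0.22 for Fyn and from -1.09 to 0.35 for Blk, and Fyn without IL-7 from -0.079 to 0.014. The difference ranged from -0.26 to 0.014 for Fyn, from -0.18 to 0.034 for Cd79a, from -0.18 to 0.018 for Syk and from -0.96 to 0.48 for Blk. The causes were not tested. With 2 arrays per group, and for Blk a low signal with replicates far apart in 1 group, small differences were not detectable.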
